A study of Mus musculus with 4 samples.

Results

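The 8 genes described here mark what a forebrain neuron releases and how it became that kind of neuron: Gad1, Gad2 and Slc32a1 for GABA, Slc17a6 and Slc17a7 for glutamate, and Dlx1, Dlx2 and Dlx5 for the GABA lineage. They were chosen by name, and all 8 were found among the 17916 gene names of the array table, with 10 probes in all. Total RNA and RNA bound to phosphorylated ribosomes were measured in the hypothalamus of C57Bl/6J mice aged 12 weeks. The salt group (2 samples) received 325 uL of 2 M NaCl and the control group (2 samples) received phosphate-buffered saline, and in both groups drinking water was withheld until death 2 h after the injection. The IP array of each sample holds RNA pulled down through the phosphorylated ribosomal protein S6 (antibody pS6 244/247), and its input array holds total RNA, so 8 arrays were read.

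GABA is the main inhibitory transmitter of the hypothalamus. It is made from glutamate by glutamate decarboxylase, of which Gad1 and Gad2 encode the 2 forms, and is loaded into synaptic vesicles by the transporter that Slc32a1 encodes. Glutamate neurons are instead told by a vesicular glutamate transporter, mostly that of Slc17a6 in hypothalamus and thalamus and that of Slc17a7 in cortex and hippocampus. The Dlx genes encode homeobox transcription factors that drive the development of forebrain GABA neurons, and some stay expressed in the adult. Phosphorylation of S6 rises in active neurons, so the IP carries a larger share of their ribosomes than the input does.

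In the mouse genome 5 of the 8 members lie on chromosome 2, with Slc17a6 and Slc17a7 on chromosome 7 and Dlx5 on chromosome 6. Dlx2 is the next protein-coding gene after Dlx1. The 250 bases before the start site are shown for the Gad1 and Gad2 pair, which encode forms of 1 enzyme and had different IP/input ratios, and for the neighbours Dlx1 and Dlx2, which were both low in the control IP. The sequences are from RefSeq, build GRCm38.p6, at chr2:70561879-70562128 (plus strand) for Gad1, chr2:22622077-22622326 (plus) for Gad2, chr2:71529195-71529444 (plus) for Dlx1 and chr2:71546755-71547004 (minus) for Dlx2. Capitals mark letters of the motifs searched, on either strand.
Gad1: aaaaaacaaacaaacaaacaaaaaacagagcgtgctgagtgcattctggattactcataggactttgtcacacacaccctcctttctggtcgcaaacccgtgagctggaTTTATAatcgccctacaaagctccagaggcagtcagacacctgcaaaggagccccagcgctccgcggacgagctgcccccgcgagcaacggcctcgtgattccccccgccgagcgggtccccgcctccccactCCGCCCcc
Gad2: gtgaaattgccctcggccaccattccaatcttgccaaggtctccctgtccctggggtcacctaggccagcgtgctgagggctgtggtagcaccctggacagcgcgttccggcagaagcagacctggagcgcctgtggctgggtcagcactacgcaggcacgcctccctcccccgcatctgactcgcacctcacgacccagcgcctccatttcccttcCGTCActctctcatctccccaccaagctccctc
Dlx1: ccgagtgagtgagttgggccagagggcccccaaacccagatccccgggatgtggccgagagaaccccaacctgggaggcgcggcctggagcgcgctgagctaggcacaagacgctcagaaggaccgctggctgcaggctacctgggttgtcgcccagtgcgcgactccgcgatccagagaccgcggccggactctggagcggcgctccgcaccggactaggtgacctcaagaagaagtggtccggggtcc
Dlx2: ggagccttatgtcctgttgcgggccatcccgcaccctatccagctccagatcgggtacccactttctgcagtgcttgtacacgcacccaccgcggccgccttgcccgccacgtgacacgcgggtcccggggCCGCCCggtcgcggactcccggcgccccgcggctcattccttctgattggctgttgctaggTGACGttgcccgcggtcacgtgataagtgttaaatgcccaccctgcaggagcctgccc
The motifs were the homeodomain core TAATTA, the cAMP response element TGACGTCA, its core TGACG (part of the full element), the GC box GGGCGG and the TATA box TATAAA. Of these, the Gad1 window held 1 TATA box at position -141 from the start and 1 GC box at -8, the Gad2 window 1 such core at -33, and the Dlx2 window 1 GC box at -119 and 1 such core at -58. The Dlx1 window held none of the 5 motifs. Of all 32851 windows of this length, 4.84% held the homeodomain core, 1.55% the full cAMP response element, 17.8% its core, 32.7% the GC box and 12.4% the TATA box. In these 4 windows the homeodomain core and the full cAMP response element were not matched.

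On the arrays, 12259 to 13808 of 25697 probes were detected (detection p under 0.01), 13058 to 13808 on IP and 12259 to 12705 on input arrays. The log2 IP/input ratios of the tested probes correlated at r = 0.73 between the salt samples and r = 0.87 between the control samples, a description across genes, which are not independent replicates. Of 12 genes listed as hypothalamus markers 11 passed the filter on dim probes, and Otp was not detected on any array. Of the pan-neuronal list 11 of 12 passed, and the other, Rbfox3, had no probe under its name. The number of arrays limits the precision of every value, and since the number of animals behind a sample is not stated, p-values describe the spread between these samples. Fewer cells of a type and less RNA per cell cannot be told apart in such tissue samples.

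Slc17a7, the glutamate transporter gene of cortex and hippocampus, was not detected on any of the 8 arrays. Its intensity was 100.7 and 107.8 on the salt IP arrays, 125.4 and 87.7 on the control IP arrays, 99.8 and 106.7 on the salt input arrays and 112.5 and 102.1 on the control input arrays, with detection p between 0.0514 and 0.743. Probes not detected on an array had a median intensity of 99.3 to 112.2 there. Slc17a7 was therefore not tested, and nothing can be said of its change. Of 10 genes listed as cortex and hippocampus markers, 6 passed the filter. Neurod6 and Rtn4r were not detected on any array, and Emx1 and Lamp5 had no probe under their names. The other 7 members passed the filter with 9 probes, and each of these 9 probes was detected on all 8 arrays.

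Gad1, the enzyme form that makes most of the brain's GABA, had bright and nearly level signals. On the log2 scale it measured 11.41 and 11.73 in salt IP and 11.48 and 11.66 in control IP, against 11.49 and 11.38 in salt input and 11.30 and 11.51 in control input. The 4 groups overlapped, with means of 11.57 in salt IP, 11.57 in control IP, 11.43 in salt input and 11.40 in control input. A second probe of Gad1 measured 11.41 to 11.75 in the IP and 11.26 to 11.45 in the input, and there both control IP arrays (11.56 and 11.55) lay above all 4 input arrays.

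Gad2, the form found mainly at nerve terminals, was lower in the IP. It measured 7.72 and 8.38 in salt IP and 8.11 and 8.11 in control IP, against 8.66 and 8.91 in salt input and 8.70 and 8.78 in control input. All IP arrays lay below all input arrays, while salt and control overlapped within each kind of RNA. The share of all tested probes with such separation was not counted. The looser condition, IP below input in all 4 samples, held for 34.2% of them. Salt replicate 1 had the lowest Gad2 level in the IP and salt replicate 2 the highest.

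Slc32a1, which loads GABA into vesicles, measured 10.66 and 10.85 in salt IP and 10.79 and 10.96 in control IP, against 10.75 and 11.12 in salt input and 10.95 and 11.10 in control input. Its IP level lay below the input level in every sample, but by little, and the groups overlapped. Slc17a6, the main hypothalamic glutamate transporter gene, had the tightest levels in salt, at 11.53 and 11.55 in the IP against 11.63 and 11.61 in the input. In control it measured 11.59 and 11.40 in the IP against 11.62 and 11.47 in the input, so that control replicate 2 was the lowest on both arrays. Thalamus markers, which come from a region rich in Slc17a6, moved with the replicate number: their 6 genes summed on the linear scale to 7114 and 4842 in salt IP and 7767 and 4611 in control IP, against 5144 and 3979 in salt input and 5681 and 3854 in control input. Their part in the spread of Slc17a6 was not tested.

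The Dlx genes had lower signals in the IP than in the input. Dlx1 measured 8.12 and 8.43 in salt IP and 7.81 and 8.31 in control IP, against 9.09 and 8.69 in salt input and 8.91 and 8.96 in control input. Dlx2 measured 9.21 and 9.61 in salt IP and 8.87 and 8.98 in control IP, against 9.66 and 9.90 in salt input and 9.70 and 9.77 in control input. Dlx5 measured 7.05 and 7.15 in salt IP and 7.18 and 7.22 in control IP, against 8.01 and 8.19 in salt input and 8.0 and 8.21 in control input. For all 3, every IP array lay below every input array. How many of all tested probes do so was not counted, and 34.2% met the looser condition of IP below input in all 4 samples. Among the IP arrays, salt lay above control for Dlx2 (as in 15.2% of all tested probes), below control for Dlx5 (15.6%), and overlapped it for Dlx1. The dim second probe of Dlx5 overlapped there, at 5.90 and 6.32 in salt IP and 6.01 and 6.04 in control IP.

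**Figure D1:**
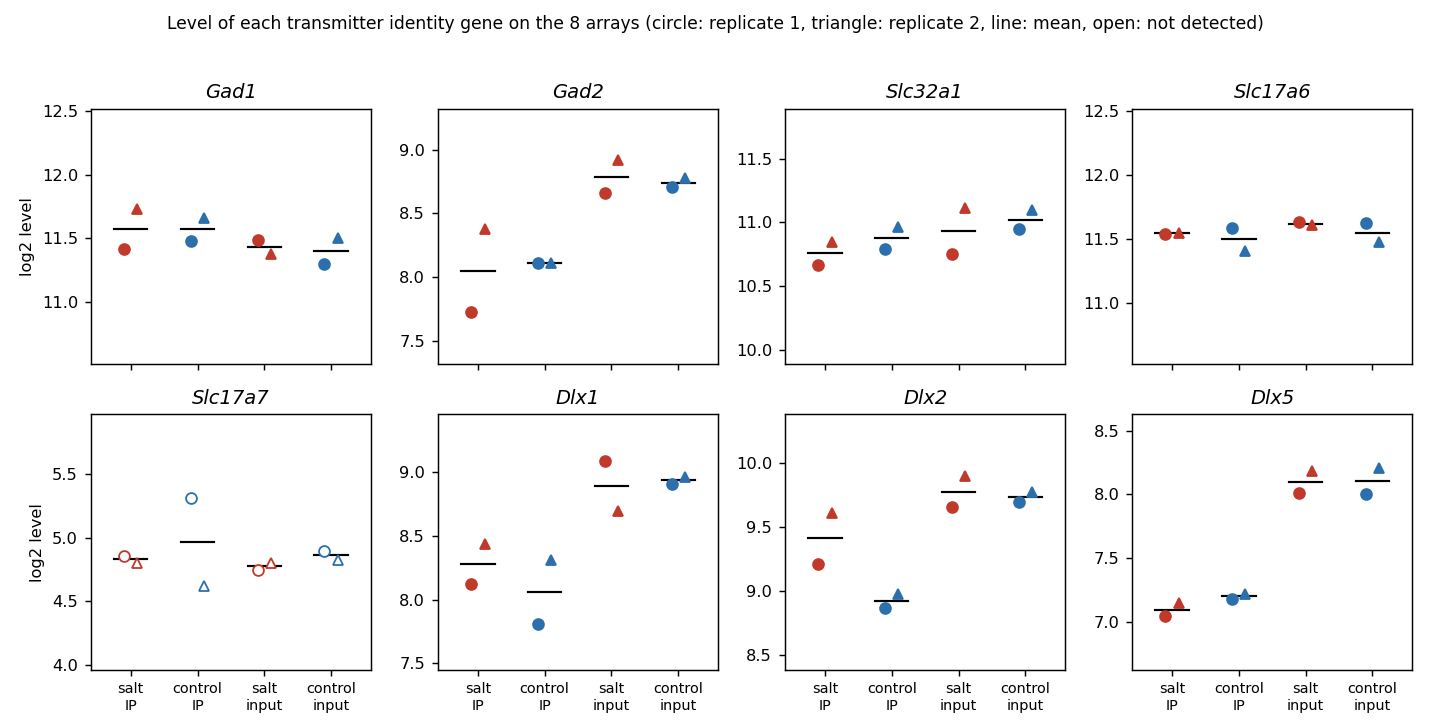
Log2 level of each member on the 8 arrays, by group, 1 point per array and a line at the mean of the 2 arrays of a group (each panel spans the same number of log2 units). Gad2, Dlx1, Dlx2 and Dlx5 sit lower in both IP groups than in both input groups, Gad1 and Slc17a6 lie nearly level, and all Slc17a7 points are open because the gene was not detected.

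The IP/input ratio in control asked which of these mRNAs were carried by phosphorylated ribosomes more or less than in total RNA after vehicle alone. Of the 7 tested members 4 were lower in the IP, 0 were higher and 3 did not pass, with a median log2 ratio of -0.63 against -0.03 over all 14199 tested probes (limma, Benjamini-Hochberg adjusted p under 0.05). Over all tested probes, 40% passed, 20.1% lower in the control IP and 19.9% higher. Dlx5 was lowest, at -0.90 ± 0.15 (SE, n = 2 samples, limma adjusted p = 0.00415), or 0.535 of the input. Dlx1 stood at -0.87 ± 0.21 (0.0148), Dlx2 at -0.81 ± 0.15 (0.00604) and Gad2 at -0.63 ± 0.17 (0.0209), or 0.647 of the input. The members that did not pass were Gad1 at 0.17 ± 0.17, Slc17a6 at -0.05 ± 0.15 and Slc32a1 at -0.15 ± 0.15, with intervals of -0.22 to 0.56, -0.40 to 0.30 and -0.50 to 0.21 (95%, limma). All 4 calls were lost when either control sample was left out, with limma adjusted p of 0.0557 to 0.211 with replicate 1 left out and 0.0687 to 0.235 with replicate 2 left out, while the ratios stayed between -0.59 and -1.10.

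In salt, 2 of the 7 members were lower in the IP and 0 higher, with a median of -0.37 against -0.02 over all tested probes, of which 36.9% passed, 18.1% lower and 18.8% higher. Dlx5 was at -1.0 ± 0.15 (SE, n = 2 samples, limma adjusted p = 0.00364) and Gad2 at -0.74 ± 0.17 (0.0132). Without salt replicate 1 Gad2 no longer passed (-0.54, limma adjusted p = 0.0642). Dlx1, at -0.62 ± 0.21 (0.0536), and Dlx2, at -0.37 ± 0.15 (0.0963), did not pass, but both passed with the deposited ratios and with no background correction. Gad1 was at 0.14 ± 0.17, Slc17a6 at -0.08 ± 0.15 and Slc32a1 at -0.18 ± 0.15. With median scaling in place of quantile normalization, which moved the median of all tested probes to -0.15 in salt and -0.16 in control, Slc32a1 passed as lower in both groups (-0.55 and -0.47), Slc17a6 passed as lower in salt (-0.51), and Gad1 turned to -0.29 in salt and -0.22 in control without passing.

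The ratios of the single samples split the members. Dlx5 was at -0.97 and -1.04 in salt and -0.82 and -0.99 in control. Gad2 was at -0.94 and -0.54 in salt and -0.59 and -0.66 in control. By these probes both genes lay below -0.5 in all 4 samples. The dim second probe of Dlx5 was at -0.54 and -0.07 in salt and -0.79 and -0.76 in control. By that probe salt lay above control, as in 13.7% of all tested probes. Dlx1 ranged widest, at -0.97 and -0.26 in salt and -1.10 and -0.65 in control, with replicate 2 above replicate 1 in both groups. Slc17a6 held between -0.10 and -0.06 in salt and between -0.07 and -0.04 in control, and Slc32a1 between -0.27 and -0.09 in salt and between -0.16 and -0.13 in control. Gad1 was at -0.07 and 0.35 in salt and 0.18 and 0.16 in control. Of the 7 tested members 6, all but Gad1, had an IP below its input in all 4 samples, which holds for 34.2% of all tested probes, and 32% lay above the input in all 4.

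**Figure D2:**
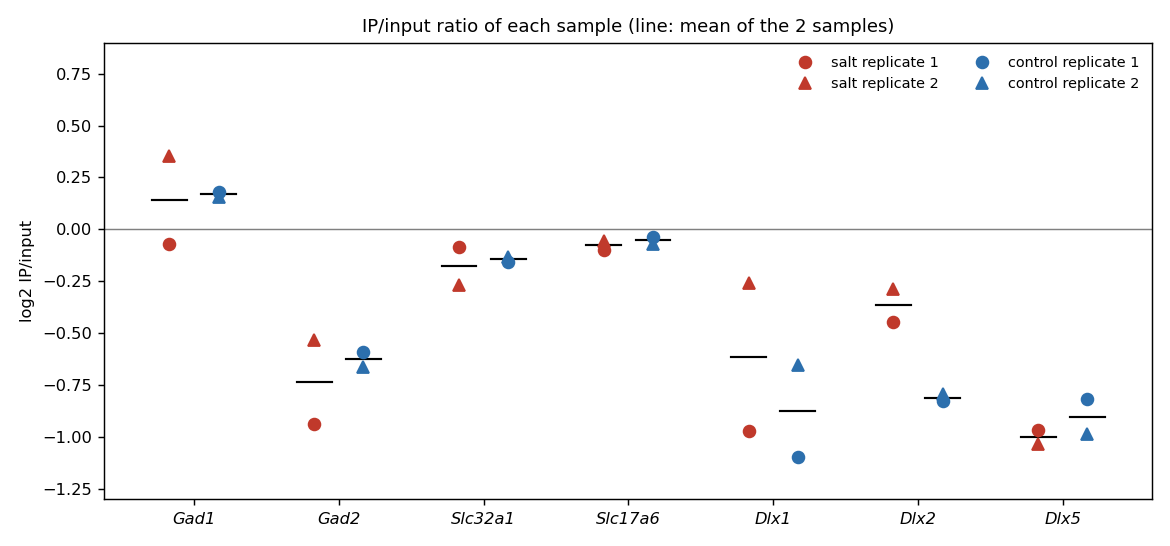
Log2 IP/input ratio of each sample for the 7 tested members, by the brightest probe of each. Salt stands left of control for each gene, with a line at the mean of the 2 samples. The dim second probe of Dlx5 is not drawn. Gad2 and Dlx5 lie below -0.5 in all 4 samples, Slc17a6 and Slc32a1 lie between -0.27 and -0.04, and the salt and control points separate only for Dlx2.

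The 2 glutamate decarboxylase genes differed in the same way in every sample. The log2 IP/input ratio of Gad2 minus that of Gad1 was -0.87 and -0.89 in salt and -0.77 and -0.82 in control. In the authors' deposited ratios, with no background correction, Gad2 was at 0.633 and 0.779 in salt and 0.746 and 0.71 in control, and Gad1 at 0.827 and 1.12 in salt and 1.00 and 0.953 in control. The difference between the genes is given as values, with no test. The mean ratio of the 3 GABA genes minus that of Slc17a6 was -0.27 and -0.09 in salt and -0.15 and -0.14 in control.

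The members with ratios near 0 had the brighter probes, as signal and not as an amount of mRNA. Gad1, Slc32a1 and Slc17a6 averaged log2 levels of 11.49, 10.90 and 11.55 over the 8 arrays, and Gad2, Dlx1, Dlx2 and Dlx5 averaged 8.42, 8.54, 9.46 and 7.63. Among all tested probes the share lower in the control IP was 22% at a mean level of 7 to 8, 22.5% at 8 to 9, 23.5% at 9 to 10, 20% at 10 to 11 and 14.4% over 11. The part of the signal level in the members' ratios was not tested. Dlx5 has a second, dim probe with intensities of 146.1 to 205.5, and it measured -0.30 ± 0.17 in salt (SE, limma adjusted p = 0.201) and -0.78 ± 0.17 in control (0.0108), against -1.0 and -0.90 for the brighter one, and the difference between its probes was not tested.

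**Figure D3:**
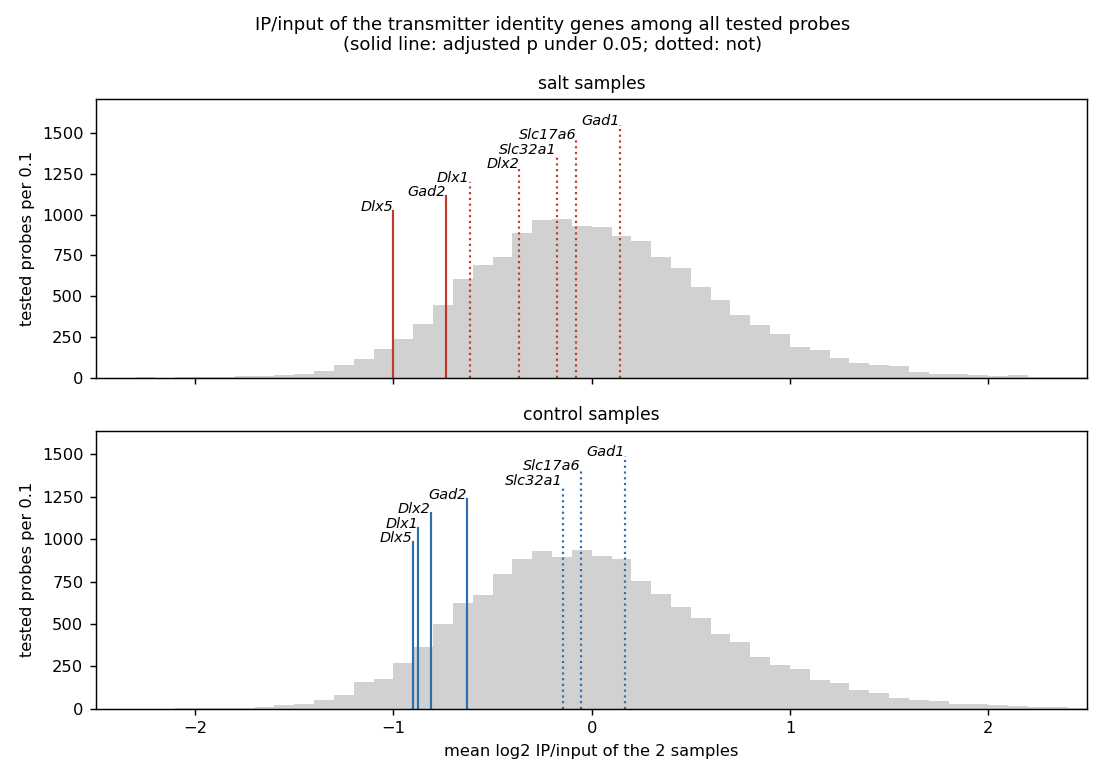
Histogram of the mean log2 IP/input ratio of all 14199 tested probes (bars, number of probes per 0.1), with salt above and control below, and a line for each member, solid where its limma adjusted p was under 0.05. In control 4 members form a group between -0.90 and -0.63, and in salt Dlx2 and Dlx1 stand nearer to the centre at -0.37 and -0.62.

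The ratio of salt against control asked whether the osmotic stimulus changed the share of these mRNAs on phosphorylated ribosomes. None of the 7 tested members passed (limma, 0 of 14199 probes, 0% of all, with 388 at an unadjusted p under 0.05). The 4 transmitter genes of enzymes and vesicles were near 0: Gad1 at -0.03 ± 0.24 (SE, n = 2 samples per group), Gad2 at -0.11 ± 0.24, Slc32a1 at -0.03 ± 0.22 and Slc17a6 at -0.02 ± 0.21. Their 95% intervals reached from -0.58 to 0.53, -0.66 to 0.44, -0.54 to 0.48 and -0.52 to 0.47. Of the 7 brightest probes, 1 per gene, that of Dlx2 had the largest difference, 0.45 ± 0.22 or 1.36-fold, with an interval of -0.06 to 0.95 (unadjusted p = 0.0754, adjusted p = 1). Both of its salt samples (-0.45 and -0.29) lay above both control samples (-0.83 and -0.79), which holds for 13.7% of all tested probes, while salt lay below control in 13.1%. Dlx1 differed by 0.26 ± 0.30, with overlapping groups. Dlx5 differed by -0.10 ± 0.22 by its brighter probe and by 0.48 ± 0.24 by the dim one, and neither passed.

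In the IP itself, salt against control, 0 of the 7 members passed, against 19 of 14199 probes or 0.134%. Dlx2 differed by 0.49 ± 0.18 or 1.4-fold (SE, limma unadjusted p = 0.0254, adjusted p = 0.841). Its salt samples lay above its control samples, as in 15.2% of probes. Leaving out salt replicate 1 gave 0.69 (limma adjusted p = 0.472), and leaving out salt replicate 2 gave 0.29 (0.966). Dlx1 differed by 0.21 ± 0.22, Dlx5 by -0.10 ± 0.16, Slc32a1 by -0.12 ± 0.18, Gad2 by -0.06 ± 0.22, Slc17a6 by 0.05 ± 0.16 and Gad1 by 0.00 ± 0.18. By its brighter probe the Dlx5 salt samples lay below its control samples, as in 15.6% of probes, while the dim probe differed by 0.08 ± 0.18 with overlapping groups.

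Markers of the striatum, a region rich in Dlx-lineage neurons, overlapped between salt and control in the IP as a sum but not as a mean log2 level. Their 5 tested genes summed on the linear scale to 1219 and 1103 in salt IP and 1314 and 1081 in control IP, and Adora2a was not detected on any array. Their mean log2 level was 7.57 and 7.51 in salt IP and 7.82 and 7.62 in control IP, lower in salt. The 5 genes did not move together in the IP: 1 was higher and 4 lower in salt. Their differences ran from -1.01, that of Ppp1r1b, to 0.31, with a median of -0.07. Ppp1r1b, a striatal phosphatase regulator gene named after its values were seen, was at 6.18 and 6.06 in salt IP and 7.23 and 7.04 in control IP (difference -1.01 ± 0.22, limma adjusted p = 0.370). The part of striatal tissue in the members' values was not tested. Pan-neuronal genes summed to 17024 and 19277 in salt IP and 18983 and 18630 in control IP.

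In total RNA, salt against control, 0 of the 7 members passed, against 2 of 14199 probes or 0.0141%. Differences ran from -0.09 ± 0.18 for Slc32a1 to 0.07 ± 0.16 for Slc17a6 (SE, limma, n = 2 arrays per group), and salt and control overlapped for each member by its brightest probe, while salt lay above control in 12.6% of all tested probes and below it in 12.3%. The dim probe of Dlx5 was at -0.39 ± 0.18 (limma unadjusted p = 0.0516, adjusted p = 1), with both salt arrays below both control arrays, while the brighter one was at -0.01 ± 0.16.

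**Figure D4:**
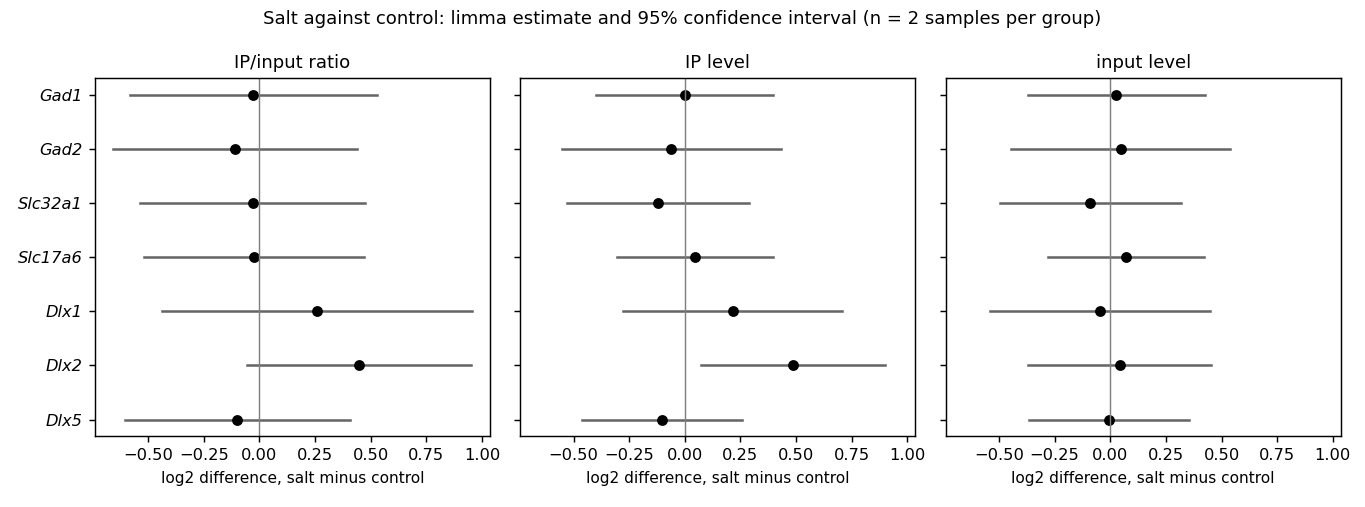
Salt minus control for each tested member (points, limma estimates on the log2 scale) with 95% confidence intervals, for the IP/input ratio, the IP level and the input level. All intervals include 0 except that of Dlx2 in the IP (0.07 to 0.90), which did not pass after adjustment, and the input estimates lie between -0.09 and 0.07.

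Genes that handle these transmitters outside the vesicle were read from lists chosen by function, whose counts stand beside 36.9% of all tested probes passed in salt and 40% in control. Of 6 tested genes of GABA uptake and breakdown, 2 were higher and 2 lower in the salt IP, and 1 higher and 1 lower in the control IP, with medians of 0.23 and 0.27. Slc6a13, a GABA transporter gene of the meninges and vessels, was detected on the 4 IP arrays and on no input array, at least 1.2-fold higher in the salt IP and 1.31-fold in the control IP. It passed the filter only through the IP arrays where it is high, so its calls are no support for a difference. Akr7a5, an aldo-keto reductase gene, was lower, at -0.57 in salt (limma adjusted p = 0.049) and -0.88 in control (0.00958). Aldh5a1, which encodes the dehydrogenase at the last step of GABA breakdown, was higher in salt (0.62 ± 0.16, 0.0187). Slc6a11, a glial GABA transporter gene, passed as lower in salt (0.0289), but it was detected on neither salt IP array and on 1 of 2 salt input arrays, so that its bound of 1.27-fold rests on 1 sample. Between salt and control none of the 6 passed in the ratio, the IP or the input, and Abat, the GABA transaminase gene, differed by 0.01 ± 0.22 in the ratio.

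Of 10 tested genes of glutamate and glutamine supply and uptake, 1 was higher and 1 lower in the salt IP and 0 passed in the control IP, shares below those of all tested probes, with medians of 0.00 and 0.02. In salt, Slc38a1, a neuronal glutamine transporter gene, was higher (0.51 ± 0.17, limma adjusted p = 0.0487), and Slc17a8, the gene of the remaining vesicular glutamate transporter, passed as lower (0.0335). Slc17a8 was detected on neither salt IP array and on 1 of 2 salt input arrays, so that its bound of 1.31-fold rests on 1 sample. Salt against control, none of the 10 passed in any of the 3 comparisons. Glul, the glial glutamine synthetase gene, differed by 0.18 ± 0.24 in the ratio and Got2, a mitochondrial aminotransferase gene, by 0.09 ± 0.23. Slc38a2, a glutamine transporter gene named after its values were seen, was at 0.61 ± 0.19 in the IP (unadjusted p = 0.010, adjusted p = 0.708) and 0.56 ± 0.19 in the input, with a ratio of 0.05 ± 0.24. Astrocyte markers, which include Slc1a2 and Slc1a3 of this list, summed on the linear scale to 5278 and 7338 in salt IP and 7874 and 4623 in control IP, and their part was not tested.

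Of 8 other tested transcription factor genes of forebrain GABA neurons, 4 were lower and 0 higher in the salt IP (median -0.60), and 4 were lower and 0 higher in the control IP (median -0.58), beside 18.1% and 20.1% of all tested probes lower. Meis2, a homeobox gene, lay above 0, at 0.10 ± 0.20 in salt and 0.32 ± 0.20 in control, without passing. Isl1, a LIM homeobox gene, was at -0.80 ± 0.20 in salt and -1.05 ± 0.20 in control, and Nkx2-1, a gene that patterns the ventral hypothalamus, at -0.81 ± 0.19 and -1.04 ± 0.19 (SE, limma adjusted p between 0.00499 and 0.0187). Sp8 was at least 2.03-fold lower in salt, not detected on either salt IP array, and at -1.0 ± 0.17 in control, where 1 of 2 IP arrays detected it. Of 5 tested transcription factor genes of glutamate neurons, 2 were lower in salt and 3 in control and 0 higher, with Foxb1 at -1.04 ± 0.16 in salt and -0.72 ± 0.16 in control. Barhl1 was at least 1.36-fold lower in control, not detected on either control IP array (limma adjusted p = 0.0356). Sim1 and Arnt2, partner factors of the paraventricular nucleus, lay above 0 without passing, Sim1 at 0.42 ± 0.20 in salt and 0.08 ± 0.20 in control and Arnt2 at 0.16 ± 0.18 and 0.04 ± 0.18. No difference between the lists was tested. Salt against control, no gene of either list passed in the ratio, the IP or the input.

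Markers of GABA neuron subtypes went both ways. Of 8 tested, 2 were higher and 5 lower in each group. Among all tested probes, 18.8% were higher and 18.1% lower in salt, and 19.9% were higher and 20.1% lower in control. Vip was at 1.43 ± 0.16 in salt and 1.52 ± 0.16 in control, and Pnoc, the nociceptin precursor gene, at 0.69 ± 0.17 and 0.79 ± 0.17. Npy and Agrp, peptide genes of 1 arcuate cell type, were at -1.69 ± 0.17 and -1.67 ± 0.22 in salt, where each was detected on 1 of 2 IP arrays, and at least 3.37-fold and 3.36-fold lower in control, where neither was detected in the IP. Sst was at -0.95 ± 0.18 in salt and -1.33 ± 0.18 in control (SE, limma), and the gene of the calcium-binding protein Calb1 was at least 1.82-fold lower in salt and 1.57-fold in control, not detected on the IP arrays. Calb1 passed the filter only through the input arrays where it is high, so its calls are no support for a difference. Pan-neuronal genes, which cover neurons of every transmitter, had medians of -0.32 in salt and -0.43 in control. Of 11 tested, 1 was higher and 3 lower in each group, beside the same shares of all tested probes.

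**Figure D5:**
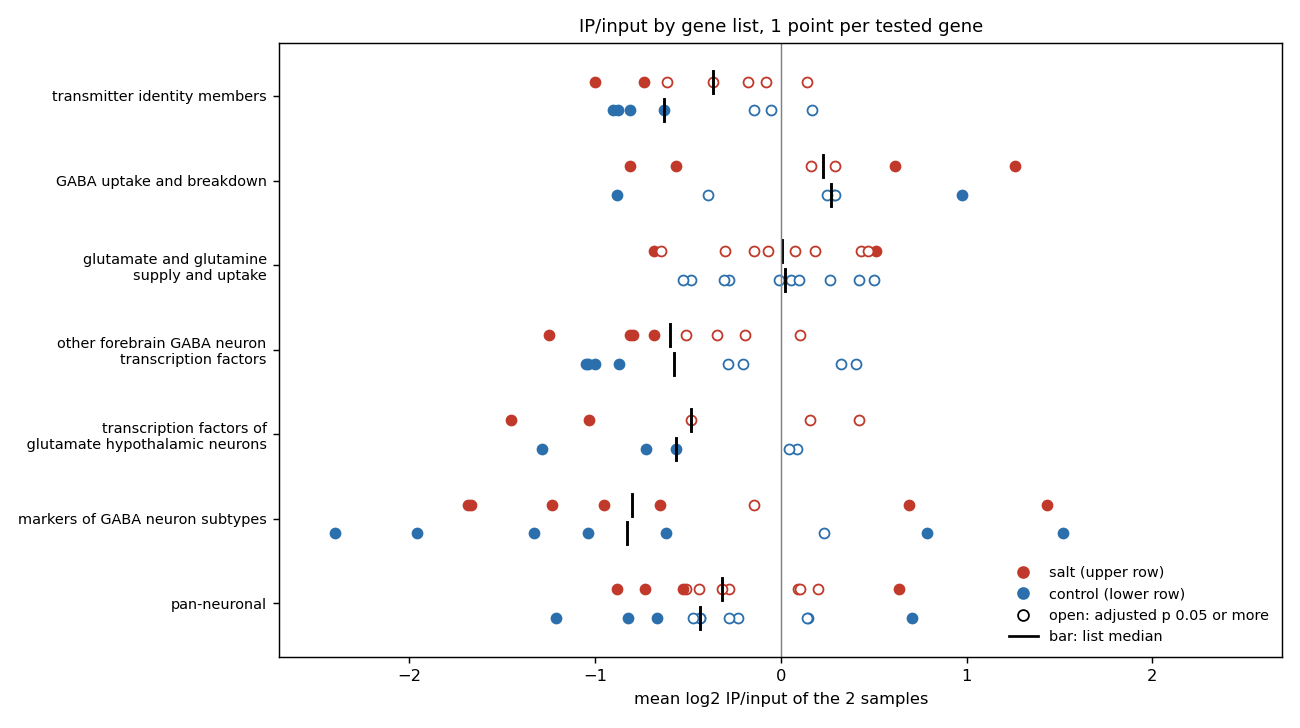
Mean log2 IP/input ratio of each tested gene, by list, salt in the upper and control in the lower row of each list, filled where limma's adjusted p was under 0.05, with a bar at the list median. Transcription factors of GABA and of glutamate neurons have medians of -0.60 and -0.49 in salt and -0.58 and -0.56 in control, while genes of GABA uptake and of glutamate supply have medians between 0.00 and 0.27 and markers of GABA neuron subtypes lie on both sides of 0. Points of genes not detected in the IP or in the input, such as Agrp in control, are fitted values and only bounds apply to them.

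Across the 8 arrays, which share 4 samples and the step from input to IP, Gad2 tracked the Dlx genes more closely than it tracked Gad1. Its Pearson r of log2 level was 0.92 with Dlx5, 0.84 with Dlx2 and 0.82 with Dlx1, against -0.27 with Gad1. Slc32a1 stood between, at 0.72 with Gad2 and -0.07 with Gad1, and Slc17a6 was at -0.59 with Gad1. Among all tested probes with a named gene, the level of Gad1 was most like that of Paf1 (r = 0.98) and Bend5 (0.97), Gad2 most like Mrpl35 (0.99) and Sostdc1 (0.98), and Slc32a1 most like Nmnat2 (0.97) and Hnrnpa3 (0.96). Slc17a6 was most like Prmt7 (0.98) and Otub2 (0.94). Among the Dlx genes, Dlx1 was most like Cops8 (0.996) and Ctsz (0.99), Dlx2 like Serpina3n (0.98), and Dlx5 most like Timm8b (0.99) and Unc50 (0.99). These r values, the highest of many over 8 arrays, only describe the arrays.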

How the data were processed

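For each probe and array the authors deposited a linear intensity and a detection p-value, per the file headers, and for each sample an IP/input ratio. The submitters' processing notes name GenomeStudio, with a version not given in the sources used here. RNA was amplified (Ovation) and biotin-labelled, per the labels' protocols. Dividing IP by input intensity returned each deposited ratio within a relative gap of 1.62e-09, and undetected probes lie well above 0, so the intensities hold no background subtraction.

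Intensities were corrected and quantile-normalized with limma's neqc steps (limma 3.58.1, R 4.3.3, offset 16), which take the background from the detection p-values and shrink differences of dim probes. The tests took the 14199 of 25697 probes that 2 or more arrays detected (p under 0.01). Log2 IP minus log2 input was fitted over the 4 samples (2 residual degrees of freedom), and levels over the 8 arrays (4), with lmFit and eBayes; p-values are two-sided and adjusted by Benjamini-Hochberg over all tested probes. The probe with the highest mean stands for a gene. "At least" folds use, for the undetected side, the higher, per array, of the lowest detected signal and the signal of the probe itself. Members and lists were chosen with earlier results of these data known. Examples from lists are the members that passed with the largest differences, or the 2 brightest where none passed; likeness takes the 2 highest r over 8 arrays. Some genes that these rules name are not reported here. Symbols follow RefSeq's GRCm38.p6 table, with 20736 probes under a current and 3841 under an older symbol, and 7 of the 8 members had a promoter window there. The build behind the array's probes is not given in the sources used here. Fits were tested on simulated data.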

Additional observations from a re-analysis of the deposited data

How the results depend on the processing

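Each member's difference was recomputed under 14 alternatives or more per comparison. Of 497 such values, 447 kept direction and side of the threshold, 9 lost a call, 14 gained one and 27 changed sign. No member passed salt against control, in the ratio, the IP or the input, under any alternative. Members lower in the salt IP numbered 4 with no background correction, 6 with median scaling and 4 with the deposited ratios, against 2, and 1 to 3 with a sample left out. Members lower in the control IP numbered 0 to 4 with a sample left out, where the lone sample is assumed to vary like the other group, against 4, and 1063 to 7700 probes passed there.

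Over all probes, the ratio of salt against control gave 1 call with no background correction, with normexp, with the deposited ratios, with the replicate block and with probes that all arrays detected, and 0 to 16 with a sample left out, against 0. The IP level gave 2 without the filter, 7 with probes detected on all arrays, 10 with IP arrays fitted alone and 1 to 5 with a sample left out, against 19. The input level gave 7 with no background correction, 5 with normexp, median scaling or trend and robust empirical Bayes, 1 without the filter, with the replicate block or with input arrays alone, 0 with probes detected on all arrays and 0 to 3 with a sample left out, against 2. Of the calls against 0, the share that was higher in the IP was 36.8% in salt and 37.7% in control with median scaling, and with IP and input normalized apart 61.3% in salt, with 3476 calls higher and 2364 lower in control, against 50.9% and 49.7%.

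The sign changes were in values that did not pass before or after the change. Gad1 in the ratio against 0 was at -0.29 in salt and -0.22 in control with median scaling, -0.052 and -0.027 with IP and input normalized apart, and -0.054 and -0.033 with the deposited ratios. Averaging a gene's tested probes, the salt difference of the ratio was 0.0067 for Gad1 and 0.19 for Dlx5.

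Leaving out each sample in turn changed the sign of further values. In the ratio of salt against control Gad1 ran from -0.24 to 0.19, Gad2 from -0.31 to 0.092, Slc32a1 from -0.12 to 0.059 and Dlx1 from -0.096 to 0.61. In the IP level of salt against control Gad2 ran from -0.39 to 0.27, Gad1 from -0.16 to 0.16, Dlx1 from -0.034 to 0.46 and Slc17a6 from -0.046 to 0.14. In the input level of salt against control Gad1 ran from -0.076 to 0.13, Slc32a1 from -0.27 to 0.093, Dlx5 from -0.11 to 0.096, Gad2 from -0.079 to 0.17, Dlx1 from -0.24 to 0.15, Dlx2 from -0.078 to 0.16 and Slc17a6 from -0.0052 to 0.15. In the ratio in salt against 0 Gad1 ran from -0.072 to 0.35.

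The replicate block moved the count of members lower in the salt IP to 3 (Dlx1 passed, limma adjusted p = 0.029) and left 4 in control. Salt and control samples of the same number deviated together at r = 0.01 in the ratio, 0.14 in the IP and -0.23 in the input, and nothing in the labels ties them. With the numbers crossed in the input, an alternative chosen after seeing the data, 2 probes passed. The depth of an array probe is its signal over background, which limits Dlx5 and left Slc17a7 unmeasured. The cause of these shifts was not tested.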
